A study of Arabidopsis thaliana with 3 samples.

Results

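CBF1 (AT4G25490), CBF2 (AT4G25470), CBF3 (AT4G25480, also DREB1A), CBF4 (AT5G51990), DDF1 (AT1G12610), DDF2 (AT1G63030), DREB2A (AT5G05410), DREB2B (AT3G11020), DREB2C (AT2G40340) and RAP2.4 (AT1G78080) are 10 genes for AP2/ERF transcription factors of Arabidopsis thaliana. They were taken by locus from 27444 nuclear protein-coding genes, and binding of DIG1 and DIG2, proteins studied in a series on ABA-responsive transcription factors (ABA is the hormone abscisic acid), was read around them from ChIP-seq peak lists on the TAIR10 build. All samples were Col-0 seedlings raised in darkness for 4 days in hydroponics and given 10 uM dexamethasone for 6 h, a steroid used in plant work to induce transgenes. Chromatin from whole seedlings was precipitated with an antibody against GFP from plants with GFP alone, with GFP-tagged DIG1 or with GFP-tagged DIG2, at 1 sample per group. The sources used here do not state the promoter that drove each fusion or the number of plant lines, and cell types of the seedling cannot be told apart. The DIG1 and DIG2 samples each gave 1 list, while GFP alone is not analysed here.

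CBF proteins and their relatives bind the dehydration-responsive element (also called the C-repeat) in promoters of genes that protect cells against cold and water loss. CBF1, CBF2 and CBF3 are the cold-induced members and lie side by side, while CBF4 has been tied to drought and ABA, and DDF1 and DDF2 to salt stress and lower gibberellin levels. DREB2 proteins act in the responses to drought and heat, and RAP2.4, also named WIND1, is known from wounding, light and ethylene responses.

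A summit is the position of highest signal that the peak caller reported inside a peak, and a peak with several summits is listed once per summit. Summits inside a gene or at most 3000 bp beyond either end were assigned to it. The gene table gives no strand, so ends are called lower and upper by coordinate, and promoter and downstream sides are not told apart. The authors' fold enrichment over background and their −log10 p come with each summit, and peaks were ranked within their list by the −log10 p of their strongest summit. With 1 list per factor there was no replicate error and no test of any difference. Read depth is unknown, so folds and ranks are compared within a list and stand side by side across lists.

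All 10 genes had a summit in each list. Over all protein-coding genes the share was 54.9% for DIG1 and 59.7% for DIG2, so most genes pass this wide window. With 500 bp or 1000 bp in its place, 9 of the 10 genes had a summit in each list, against 31% and 37.7% of all genes for DIG1 and 35.1% and 42.3% for DIG2. With 5000 bp all 10 did, against 67.3% and 71.7%. The windows held 24 distinct DIG1 summits in 21 peaks and 27 distinct DIG2 summits in 21 peaks. The authors' fold of these summits ran from 2.22 to 10.7 for DIG1, with a median of 3.7 against 3.19 over all 13459 DIG1 summits. For DIG2 it ran from 2.28 to 14.1, with a median of 4.13 against 3.80 over all 16562 summits. The strongest peaks of the genes ran from rank 69 at RAP2.4 to rank 8932 at DREB2C in the DIG1 list, and from rank 40 at RAP2.4 to rank 8660 at DREB2B in the DIG2 list. The summit of that last peak lay nearer to ENGase85B (AT3G11040), and the DIG2 peak beside DREB2B had rank 9380. The median rank of a gene's strongest peak was 693 in the DIG1 list of 11343 peaks and 1033 in the DIG2 list of 13440. Over every protein-coding gene with a summit in its window these medians were 4319 and 5021. CBF2 and CBF3 share their strongest DIG1 peak, and CBF1 and CBF3 their strongest DIG2 peak. Each median of the 10 genes thus counts a shared peak more than once.

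Summits lay close to gene ends at most of the 10 genes. A summit within 200 bp of an end, inside or outside, was found at 9 of the 10 genes in each list, against 21.1% of all protein-coding genes for DIG1 and 24.4% for DIG2. The exception in both lists was DDF2. This narrower window was chosen after the values were seen. Of the distinct summits, 2 DIG1 and 2 DIG2 summits lay inside one of the 10 genes, at CBF3 and CBF1, and none was deeper than 108 bp (DIG1) or 110 bp (DIG2) from the upper end. Inside any protein-coding gene lay 12.5% of the DIG1 and 11.1% of the DIG2 summits near the 10 genes, against 28.1% and 28.2% of all summits in the lists.

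**Figure D1:**
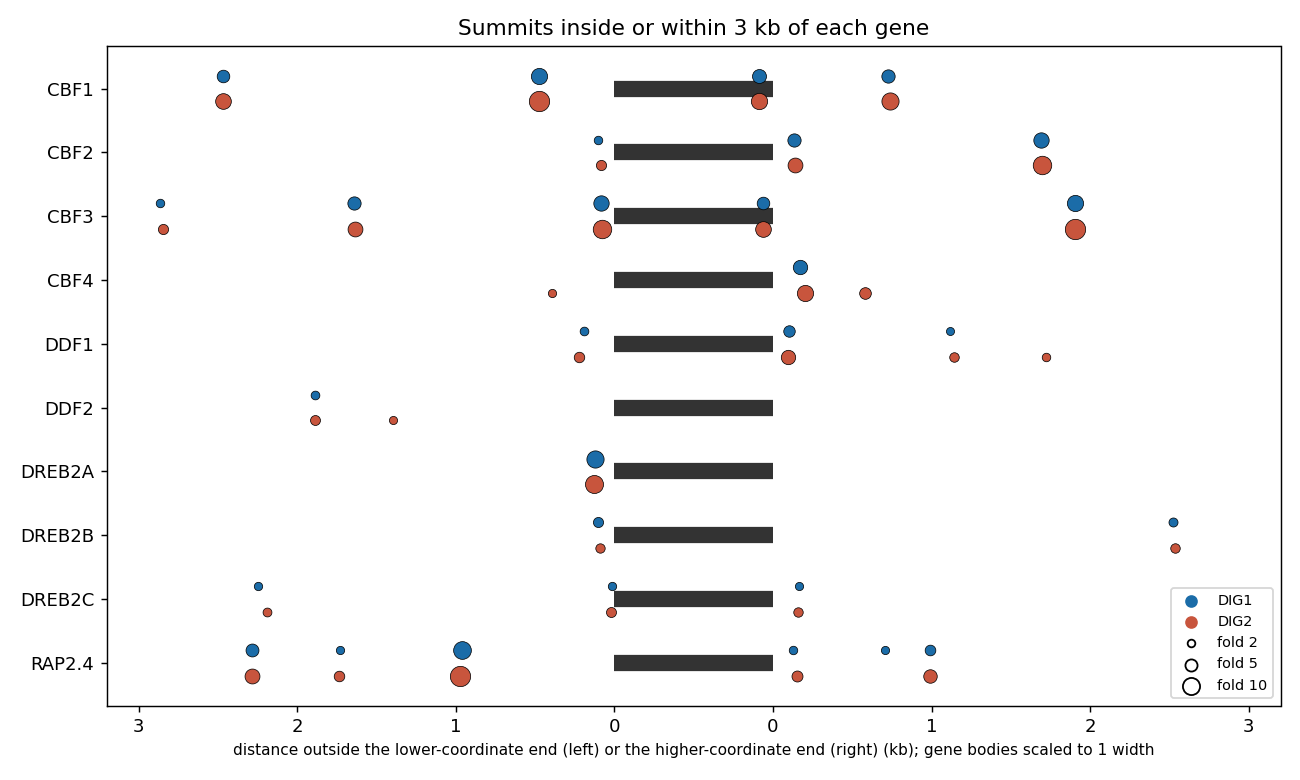
Positions of DIG1 (blue) and DIG2 (red) summits around each gene, in kb outside the lower-coordinate end (left) or the higher-coordinate end (right), with gene bodies drawn at equal width and point area proportional to the authors' fold. Both lists place summits at 9 of 10 genes within 200 bp of an end, and DDF2 has none nearer than 1395 bp.

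DIG1 and DIG2 summits coincided at most of these positions. Of the 24 DIG1 summits 23 had a DIG2 summit at most 100 bp away, and these lay a median of 9 bp and at most 59 bp apart. Across the whole DIG1 list 94.7% of summits had such a partner, so the 95.8% here is close to the rest of the list. Of the 27 DIG2 summits 23 (85.2%) had a DIG1 partner, against 77.0% of all DIG2 summits. Each of the 10 genes held at least one matched pair, as did 52.8% of all protein-coding genes. Both precipitations used the same antibody, and the sources used here do not name the control of either list.

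The CBF2, CBF3 and CBF1 genes lie in that order along chromosome 4 and carried a row of 7 summits in each list. From the first to the last summit the row spanned 8579 bp for DIG1 and 8568 bp for DIG2, with neighbouring summits 836 to 1994 bp and 847 to 1995 bp apart. Every summit of the row had its partner in the other list within 20 bp. Of the 7 summits, 5 fall in the windows of 2 of the genes at once, so the counts of 4 (CBF1), 3 (CBF2) and 5 (CBF3) summits per gene in each list overlap. Among 27434 runs of 3 neighbouring protein-coding genes, taken with the same margin, 3.85% held 7 or more DIG1 summits and 6.83% held 7 or more DIG2 summits. The median run held 1 DIG1 and 2 DIG2 summits. The 3 genes are close relatives in sequence, and the sources used here do not say how reads that match several places were handled.

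At CBF1, the strongest summit lay 476 bp outside the lower end in both lists, at the identical position 13021304. Its DIG1 peak (chromosome 4, 13020925 to 13021952) had an authors' fold of 9.0 and rank 326, and its DIG2 peak (13020893 to 13021988) a fold of 14.1 and rank 132. This was the highest fold of the row in each list. The summit lay inside AT4G03125, a gene of the class misc_RNA in the gene table, 218 bp from its upper end. CBF1 also had a summit just inside its upper end, 108 bp in for DIG1 (fold 6.68) and 110 bp for DIG2 (fold 9.09). A further summit lay 728 bp beyond the upper end for DIG1 (fold 6.03, rank 875) and 737 bp for DIG2 (fold 10.1), in the gap before RS40 (AT4G25500). In the DIG2 list these last 2 summits shared a single peak of 1961 bp (13022513 to 13024473, rank 345). In the DIG1 list they were separate peaks of 617 and 768 bp.

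At CBF3, the nearest summit was 82 bp outside the lower end for DIG1 and 81 bp for DIG2. The DIG1 peak (13017628 to 13018320) had a fold of 8.03 and rank 267, and the DIG2 peak (13017573 to 13018369) a fold of 11.7 and rank 164. By −log10 p this was the strongest DIG1 summit of the row, at 451 against 418 for the summit beside CBF1. In the DIG2 list the order was the other way, at 834 against 879. The summit lay inside the long non-coding RNA gene AT4G07385, which reaches over the lower end of CBF3. A weaker summit lay 90 bp inside the upper end for DIG1 (fold 5.40, rank 1626) and 91 bp inside it for DIG2 (fold 8.37, rank 1324).

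CBF2 had the weakest summit of the row beside its lower end, 105 bp outside for DIG1 and 85 bp for DIG2. Its fold was 2.48 in the DIG1 list (peak 13014982 to 13015310, rank 8897) and 3.57 in the DIG2 list (13014975 to 13015482, rank 7431). The summit past its upper end was stronger, at 131 bp for DIG1 (fold 6.00, rank 1785) and 140 bp for DIG2 (fold 7.52, rank 2410). The lower-end summits of CBF2, CBF3 and CBF1 thus had DIG1 folds of 2.48, 8.03 and 9.0 and DIG2 folds of 3.57, 11.7 and 14.1, in the same order. The strongest peak in the CBF2 window was the one it shares with CBF3, which lies 1693 bp past CBF2 for DIG1 and 1694 bp for DIG2.

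**Figure D2:**
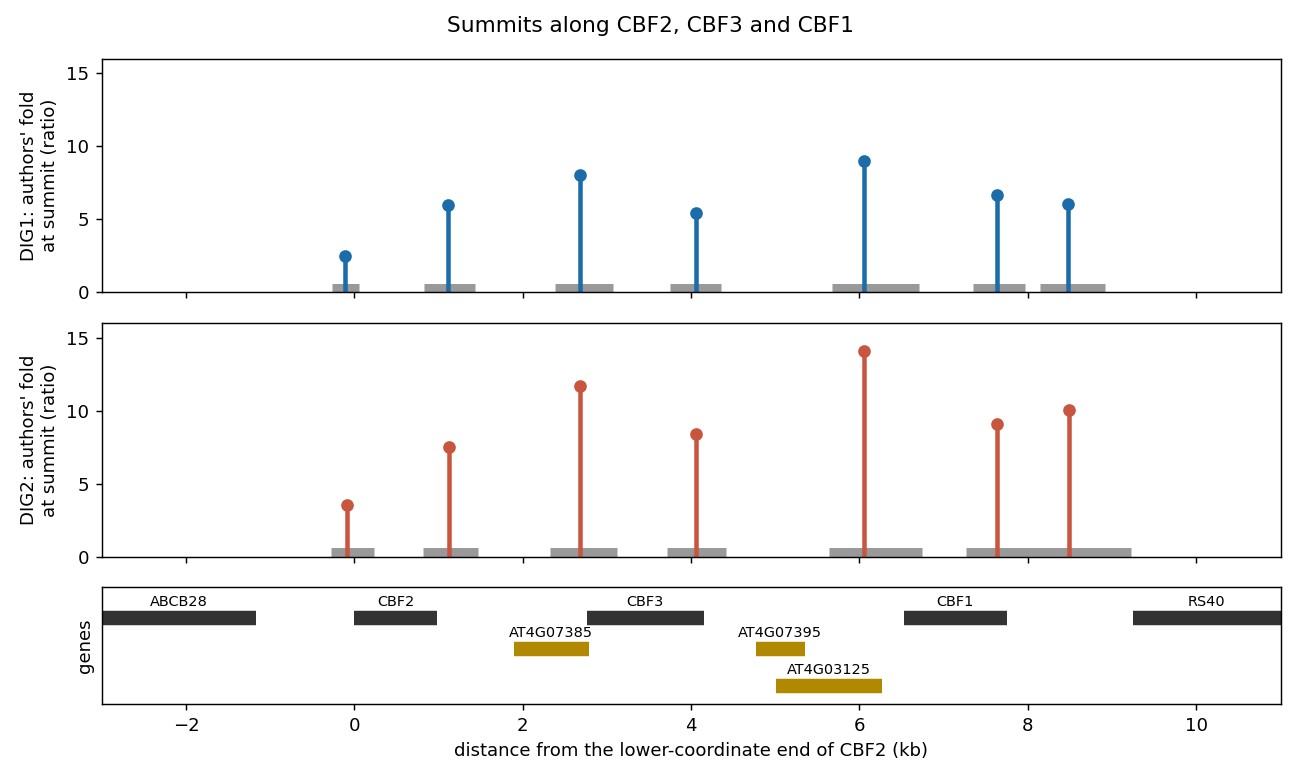
Summits along CBF2, CBF3 and CBF1, with the authors' fold on the y axis for DIG1 (top) and DIG2 (middle), peaks as grey bars, and protein-coding (dark) and non-coding (gold) genes below, against distance in kb from the lower end of CBF2. The 7 summits of each list line up within 20 bp, and the lowest, at a fold of 2.48 and 3.57, lies beside CBF2.

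CBF4, on chromosome 5, had 1 DIG1 and 3 DIG2 summits. The summit found in both lists lay outside the upper end, at 173 bp for DIG1 (peak 21117710 to 21118704, fold 7.07, rank 1060) and 199 bp for DIG2 (21117663 to 21118741, fold 9.01, rank 1583). The DIG2 peak held another summit at 580 bp (fold 4.65), nearer to the importin gene IMPA-8 (AT5G52000), at 506 bp. The nearest DIG1 summit was 407 bp from this DIG2 summit. The remaining DIG2 summit lay 391 bp below the lower end (21116165 to 21116662) and was weak, with a fold of 2.34 and rank 12236. It was nearer to AT5G51980, at 172 bp, than to CBF4.

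DDF1 and DDF2, both on chromosome 1, had summits at different distances and ranks. DDF1 had summits beside both ends. The stronger lay 104 bp past the upper end for DIG1 (peak 4290798 to 4291313, fold 4.50, rank 3300) and 94 bp for DIG2 (4290850 to 4291336, fold 7.03, rank 2779). The other lay 189 bp below the lower end for DIG1 (fold 2.59) and 225 bp for DIG2 (fold 3.76). It was nearer to the long non-coding RNA gene AT1G04963, at 158 and 122 bp. Another pair lay 1115 and 1144 bp past the upper end of DDF1 (folds 2.22 and 3.11). DIG2 also had a summit at 1723 bp (fold 2.48) whose nearest DIG1 summit was 608 bp away. DDF2 had a matched pair 1886 bp (DIG1) and 1890 bp (DIG2) below its lower end, with folds of 2.60 and 3.37 and ranks of 8673 and 8326. The pair was nearer to the long non-coding RNA gene AT1G08587, at 217 and 221 bp. DIG2 had a further summit 1395 bp below DDF2 (fold 2.28, −log10 p 19.4), 69 bp from AT1G08587.

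Of the DREB2 genes, DREB2A stood far above the others in both lists, with a single summit in each. It lay 123 bp outside the lower end for DIG1 (chromosome 5, 1601710 to 1602392), with a fold of 10.1, a −log10 p of 524 and rank 156. For DIG2 it lay 130 bp outside (1601339 to 1602357), with a fold of 11.1, a −log10 p of 632 and rank 483. The nearest other gene, AT5G05400, ended 827 bp from the DIG1 summit.

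DREB2B and DREB2C had weak summits. At DREB2B (chromosome 3) a pair lay 104 bp (DIG1, 3454983 to 3455425, fold 3.52, rank 5448) and 88 bp (DIG2, 3454909 to 3455478, fold 3.0, rank 9380) below the lower end. Its other pair, 2521 and 2535 bp past the upper end (folds 2.78 and 3.09), lay beyond the neighbouring TBL32 (AT3G11030), which overlaps DREB2B in the gene table, and 76 and 62 bp from ENGase85B (AT3G11040). DREB2C (chromosome 2) had 3 summits in each list. The nearest lay 14 bp (DIG1, 16847356 to 16848357, fold 2.4, rank 8932) and 23 bp (DIG2, 16847286 to 16848363, fold 3.42, rank 7471) below the lower end. The next lay 165 and 155 bp past the upper end (folds 2.32 and 3.05). The farthest pair, at 2249 and 2190 bp, lay inside the ABA receptor gene PYL6 (AT2G40330), 283 and 224 bp from its upper end, with folds of 2.4 and 2.67. When −log10 p had to reach 30, DREB2C and DDF2 had no DIG1 summit, so 8 of the 10 genes kept one, against 43.8% of protein-coding genes. For DIG2 all 10 did, against 51.9%.

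RAP2.4, on chromosome 1, had the peak with the highest −log10 p of the 10 genes in both lists and, in the DIG1 list, the most summits. Its lead rests on a summit more than 500 bp from the gene: with the 500 bp window its ranks were 3502 (DIG1) and 2623 (DIG2), and DREB2A (rank 156) led for DIG1 and CBF1 (rank 132) for DIG2. Ranked by fold, RAP2.4 still led in the DIG1 list (rank 135), while in the DIG2 list it came at rank 127, behind the peak beside CBF1 at rank 122. The window held 6 DIG1 and 5 DIG2 summits, numbers reached by 0.703% of protein-coding genes for DIG1 and 3.53% for DIG2, in windows that grow with gene length. With a −log10 p of at least 30 it held 4 DIG1 summits, as did those of CBF1 and CBF3. With the strongest summit per peak alone it held 3, against 5 for CBF3 and 4 for CBF1. The leading summit of RAP2.4 lay 959 bp (DIG1) and 972 bp (DIG2) below the lower end. Its DIG1 peak (29362778 to 29363385) had a fold of 10.7, a −log10 p of 657 and rank 69, and the DIG2 summit a fold of 14.0, a −log10 p of 1034 and rank 40. Farther out came pairs at 1732 and 1739 bp (folds 2.36 and 3.81) and at 2284 bp in both lists (folds 5.68 and 7.57).

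The DIG2 summits below RAP2.4 belonged to 1 peak of 4370 bp (29359060 to 29363429) with 6 summits, of which 3 fell in the window. In the DIG1 list the same stretch was divided into a peak of 3458 bp with 5 summits (29359067 to 29362524) and the separate leading peak. Past the upper end lay pairs at 127 and 151 bp (folds 2.47 and 4.13) and at 989 and 991 bp (folds 3.87 and 6.21). A DIG1 summit at 705 bp (fold 2.32, −log10 p 28) was the single DIG1 summit near the 10 genes without a DIG2 partner. It lay inside the DIG2 peak of 29365855 to 29367576. No other protein-coding gene began or ended between AT1G78070 and the upper summits, and the non-coding gene AT1G09965 lay 144 bp from the summit at 2284 bp. The nearest summits just beyond the window were at 3045 bp (DIG1) and 3081 bp (DIG2) here and at 3075 and 3074 bp past CBF2, against 2865 and 2845 bp for the farthest ones counted, at CBF3.

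**Figure D3:**
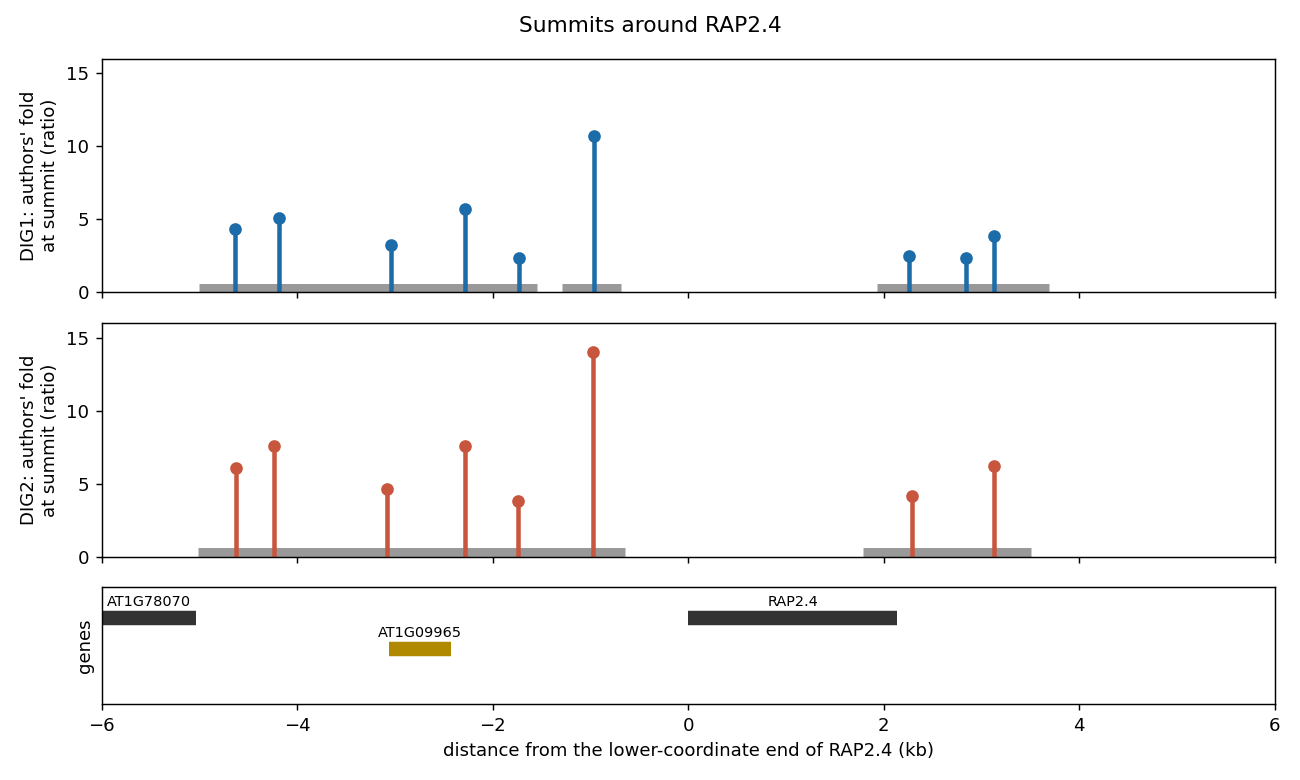
Summits around RAP2.4, with the authors' fold on the y axis for DIG1 (top) and DIG2 (middle), peaks as grey bars and genes below (protein-coding dark, non-coding gold), against distance in kb from the lower end of RAP2.4. The leading summit has a fold of 10.7 for DIG1 and 14.0 for DIG2, and none lies inside the gene.

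Within the DIG1 list the −log10 p of each gene's strongest summit fell from 657 at RAP2.4 through 524 at DREB2A, 451 at CBF3 and CBF2, 418 at CBF1, 243 at CBF4 and 104 at DDF1 to 56.9 at DREB2B, 27.3 at DDF2 and 25.9 at DREB2C. Within the DIG2 list it fell from 1034 at RAP2.4 through 879 at CBF1 and CBF3, 834 at CBF2, 632 at DREB2A, 378 at CBF4 and 244 at DDF1 to 65.9 at DREB2C, 53.4 at DDF2 and 49.1 at DREB2B. The upper 7 places and the lower 3 thus went to the same genes in each list. The DIG2 value of DREB2B came from the summit 62 bp from ENGase85B, while the DIG2 summit beside DREB2B had a −log10 p of 41.2. A summit of the 1000 strongest peaks lay in the window of 5 of the 10 genes in each list (RAP2.4, DREB2A, CBF1, CBF2 and CBF3), against 7.7% of all protein-coding genes for DIG1 and 7.27% for DIG2. CBF2 owed this to the peak it shares with CBF3.

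Genes around the same pathway were read with the same window. Of 12 relatives in the DREB subfamily named in the gene table, 11 had summits of both factors, against 53.3% of all protein-coding genes. The strongest peaks were at DEAR4 (AT4G36900, ranks 505 and 225 for DIG1 and DIG2), at AT1G22190, which also carries the name RAP2.4 (ranks 879 and 596), and at DEAR2 (AT5G67190, ranks 941 and 617), which had 8 summits in each list. ABI4, which encodes an AP2 factor of ABA and sugar signalling, had none. DREB2D to DREB2H and most relatives of RAP2.4 were left out, as the gene table does not give these names at their loci. At AT1G22190 the strongest summit lay 835 bp (DIG1) and 823 bp (DIG2) below the lower end.

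Of 27 genes for regulators of CBF and DREB2 genes or proteins, 25 had a DIG1 summit, 24 a DIG2 summit and 24 both, against 54.9%, 59.7% and 53.3% of all protein-coding genes. PIF3, a bHLH factor that represses CBF genes, had ranks 391 and 96, and the clock genes CCA1 and LHY, whose products act on CBF expression, had ranks 329 and 322 and ranks 529 and 363. ICE2, a bHLH factor of the cold response, and GRF7, a repressor of DREB2A, had no summit, and HOS1, a ubiquitin ligase of the cold response, had a DIG1 summit alone (rank 10483). Of 15 target genes of CBF or DREB2 proteins, 12 had summits of both factors, against 53.3% of all protein-coding genes. They were led by ERD10 (ranks 17 and 11) and COR47 (ranks 39 and 42), which encode dehydrins, and by GOLS3, a galactinol synthase gene (ranks 205 and 599). COR15A, COR15B and LTI30, all cold-induced, had none. The median ranks of the strongest peaks were 3440 and 2124 for the relatives, 2139 and 2088.5 for the regulators, and 2896 and 3562 for the targets. In each list KIN1 and COR6.6 shared their strongest peak, as did RD29A and RD29B, and COR314-TM2 and COR413IM1. The count and medians of the targets thus hold these peaks more than once. Among these relatives, regulators and targets, those nearest to RAP2.4 in their pair of log10 ranks were COR47 (distance 0.249), ERD10 (0.827) and PIF3 (0.844). Of the 10 genes themselves CBF3 lay nearest to RAP2.4, at 0.784, nearer than ERD10 and PIF3.

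**Figure D4:**
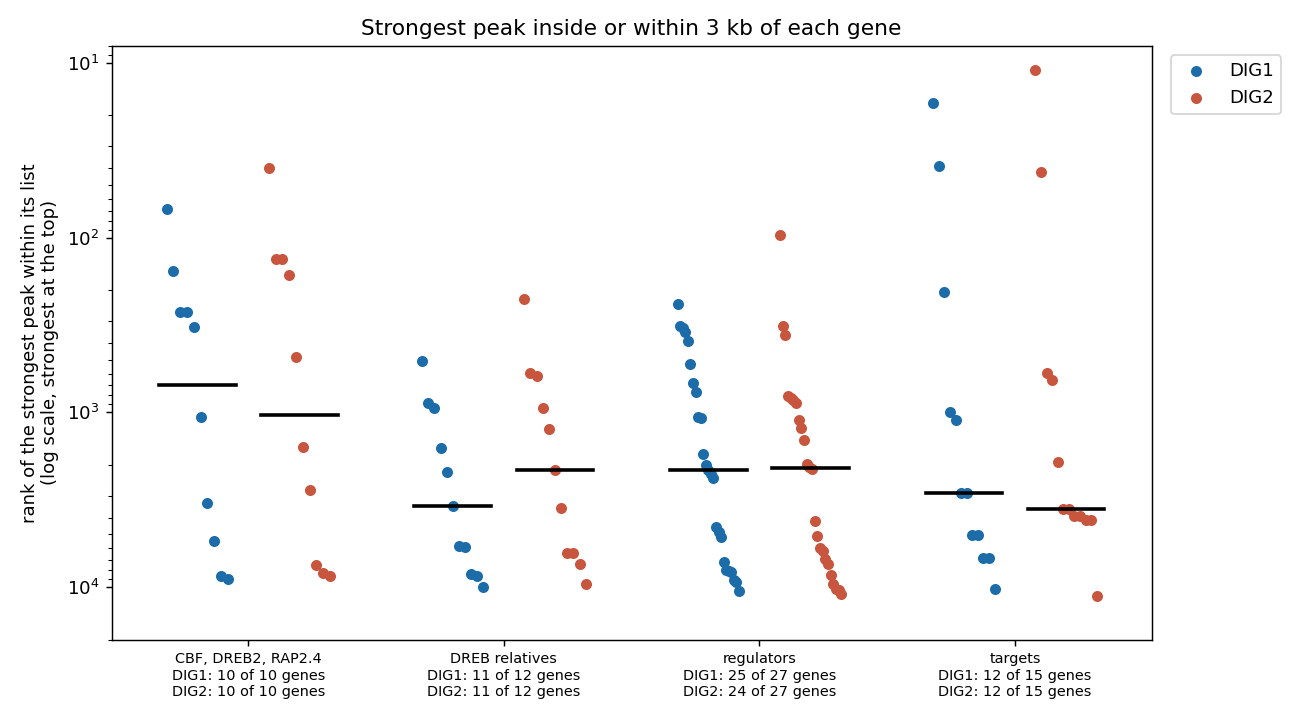
Rank of each gene's strongest peak within the DIG1 (blue) and DIG2 (red) list on a log axis with the strongest at the top, for the 10 genes and for their relatives, regulators and targets, with black bars at the medians. RAP2.4 leads the first group at ranks 69 and 40, and ERD10 leads the targets at ranks 17 and 11.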

How the data were processed

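Peak lists of 2 samples were analysed. Per the submitters' processing notes, Bowtie 0.12.7, MACS2 and the TAIR10 build were used. The deposited lists are in narrowPeak layout, and each summit carries the authors' fold enrichment (a ratio), −log10 p, −log10 q and a score. No deposited −log10 p lay under 16. The score was not used, and the sources used here do not state pooling of replicates, the control or read depth.

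Genes came from a RefSeq table of assembly TAIR10.1 (38312 entries, 27444 nuclear protein-coding). None of its coordinates is printed. Shifting all summits in steps of 50 bp up to 2000 bp gave the fewest summits inside genes at -50 to 50 bp on every chromosome. The labels give the locus of DIG1 as AT3G45810, which that table calls RbohJ, and this locus was not used.

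The 10 genes and the other lists were chosen with earlier results of these data known. All 10 members are named, with the 3 best-ranked genes of each other list and those without a summit. Also named are some of the genes that share a summit, and genes said to be chosen after their values were seen (HOS1 among them). Of 23 relatives given by locus, 12 were kept because the table holds the name, which left out DREB2D to DREB2H and most relatives of RAP2.4. The planned motif search was not run, since no sequence was used here. Counting was tested on simulated data. Python 3.11.15 and pandas 2.3.3 were used, and alternatives are given in the closing section.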

Additional observations from a re-analysis of the deposited data

How the results depend on the processing

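The alternatives were a −log10 p of at least 30, windows of 500, 1000 and 5000 bp, the strongest summit per peak alone, lists of equal length (11343 peaks), other matching rules and ranking by fold. The number of genes with a summit stayed between 8 and 10 for DIG1 and between 9 and 10 for DIG2, and that with a matched pair between 8 and 10. With a −log10 p of at least 30, the 24 DIG1 summits fell to 15, and the matched summits to 15 in each list. With the 500 bp window, 14 DIG1 and 15 DIG2 summits remained, 14 of each matched. The median rank of a gene's strongest peak, 693 for DIG1 and 1033 for DIG2, was 1785 and 2410 with 500 bp, 1060 and 1583 with 1000 bp, and 698.5 and 919 by fold. The medians with 500 and 1000 bp are over the 9 genes that kept a summit, without the low-ranked DDF2. Medians over all protein-coding genes were not computed with these windows. Of 120 counts of summits per gene under an alternative, 32 moved by over 1.5 times. With 500 bp, RAP2.4 moved from ranks 69 and 40 to 3502 and 2623. DDF2 had no summit of either factor with the 500 and 1000 bp windows. The motif alternative was not run. No paired analysis was possible because there was 1 list per factor. When peaks sharing 50% of the shorter counted as matched, all 24 DIG1 summits and 25 of the 27 DIG2 summits were matched. Some summits without a partner thus lay in a peak that overlaps one of the other list. Depth and the authors' cutoff are unknown, and 16 is only the lowest −log10 p found in the lists. Other summits missing from a list may lie below its cutoff, which was not tested.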

Other observations

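The CAMTA calmodulin-binding factors and ICE1 act upstream of CBF genes, and their peaks were unequal. These genes were chosen after their values were seen. CAMTA1 had ranks 240 (DIG1) and 1224 (DIG2) and CAMTA2 ranks 321 and 889, while CAMTA3 had ranks 8001 and 10997 and ICE1 ranks 9301 and 8486. MYB15, a repressor of CBF genes, had a single summit in each list, 104 and 108 bp outside its lower end (ranks 2139 and 2054).

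Peak names in the lists carry letters where a peak has several summits. Of the 21 peaks near the 10 genes in each list, 2 DIG1 peaks (at DDF2 and DREB2C) and 3 DIG2 peaks (at DREB2A, DREB2B and DREB2C) carried a letter but had 1 listed summit. Over the whole lists, letters were skipped in 1012 of 11343 DIG1 peaks and 653 of 13440 DIG2 peaks. That count leaves out a lone letter a, as at DDF2, so it is not fully alike. The highest peak number was 18933 in the DIG1 list, which holds 11343 numbers, and 18299 in the DIG2 list, which holds 13440.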
